A study of Mus musculus with 7 samples.

Results

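This section describes 8 genes for proteins of the sarcomere, the Z-disc and the filaments attached to it, Ankrd1, Ankrd2, Csrp3, Xirp1, Fhl1, Nes, Flnc and Cryab, in mouse plantaris muscle after 1 week of mechanical overload. The genes were chosen by symbol, with earlier results of these data known. All 15 probe sets that the platform annotation assigns to one of these symbols alone were read, and the one that was brightest on average stood for its gene (the lead probe set). The 8 genes stand among 18193 genes measured on 7 Affymetrix arrays.

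All mice were Pax7-DTA animals, 4 months of age, from the parental strains Pax7-CreER and Rosa26-DTA. In such mice tamoxifen activates Cre under the control of Pax7, and the diphtheria toxin A chain is then made in satellite cells, the resident stem cells of muscle. Controls carried the same alleles and received vehicle. Per the sample titles, the groups were tamoxifen overload (3 arrays, replicates 1 and 2 male and replicate 3 female), vehicle overload (2 arrays, replicate 1 female and replicate 2 male), tamoxifen sham (1 male array) and vehicle sham (1 male array). Overload was produced by synergist ablation, an operation that removes the function of the neighbouring calf muscles so that the plantaris takes over their work. The design text speaks of pooled right and left muscles from several animals, whereas the titles name single mice, so the number of animals behind an array is uncertain. The p-values measure only the spread between the 5 overload arrays, because each sham group holds 1 array and adds no spread.

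Signals are the authors' linear intensities, scaled so that each array has the same trimmed mean, and tests were run on log2(signal + 1). Arrays had median signals between 88.2 and 128, and 66.8% to 72.7% of genes lay above the background level, a signal of 53.6. The 3'/5' ratios, a sign of RNA quality, were 0.807 to 0.906 for Gapdh and 1.10 to 1.20 for actin, both highest on tamoxifen overload replicate 2. Pax7, the gene that drives the Cre, had signals of 57.9, 9.97 and 120.3 on the 3 tamoxifen overload arrays, against 274 and 349 on the 2 vehicle overload arrays, and of 41.2 on the tamoxifen sham array, against 92.8 on the vehicle sham array. All 8 lead probe sets were above background on all 7 arrays.

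Muscle cells sense load at the Z-disc, the plate that anchors actin filaments at each end of a sarcomere, and along titin. Titin is a giant protein that reaches from the Z-disc to the middle of the sarcomere. Proteins bound to either, among them the muscle ankyrin repeat proteins and the muscle LIM proteins, can also enter the nucleus. Several of their genes are known to be induced when muscle is stretched or loaded. Filamins and Xin proteins crosslink actin at and near the Z-disc, intermediate filaments tie neighbouring Z-discs together, and small heat shock proteins protect both under mechanical strain.

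After 1 week of overload, 3 of the 8 genes rose and none fell. Ankrd1, a titin-binding ankyrin repeat protein, was 6.86-fold higher, nestin (Nes) 2.41-fold and the muscle LIM protein Csrp3 1.96-fold. Ankrd2, Xirp1, Fhl1, Flnc and Cryab did not pass the test. The comparison is the mean of the overload minus sham differences under tamoxifen and vehicle, fitted with limma with sex as a covariate over all 7 arrays, and calls were made below an adjusted p of 0.05, with the Benjamini-Hochberg method applied over all 18193 genes. Of all genes, 14.7% were called higher and 8.16% lower in overload, so 3 of 8 is a count to be read against a broad response. The median difference of the 8 genes was 0.67 on the log2 scale, beside 0.07 over all genes. Because the genes were chosen with earlier results known, neither comparison with all genes is a test. Although these genes are grouped as load-responsive, 5 of the 8 did not pass at this time and sample size.

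**Figure D1:**
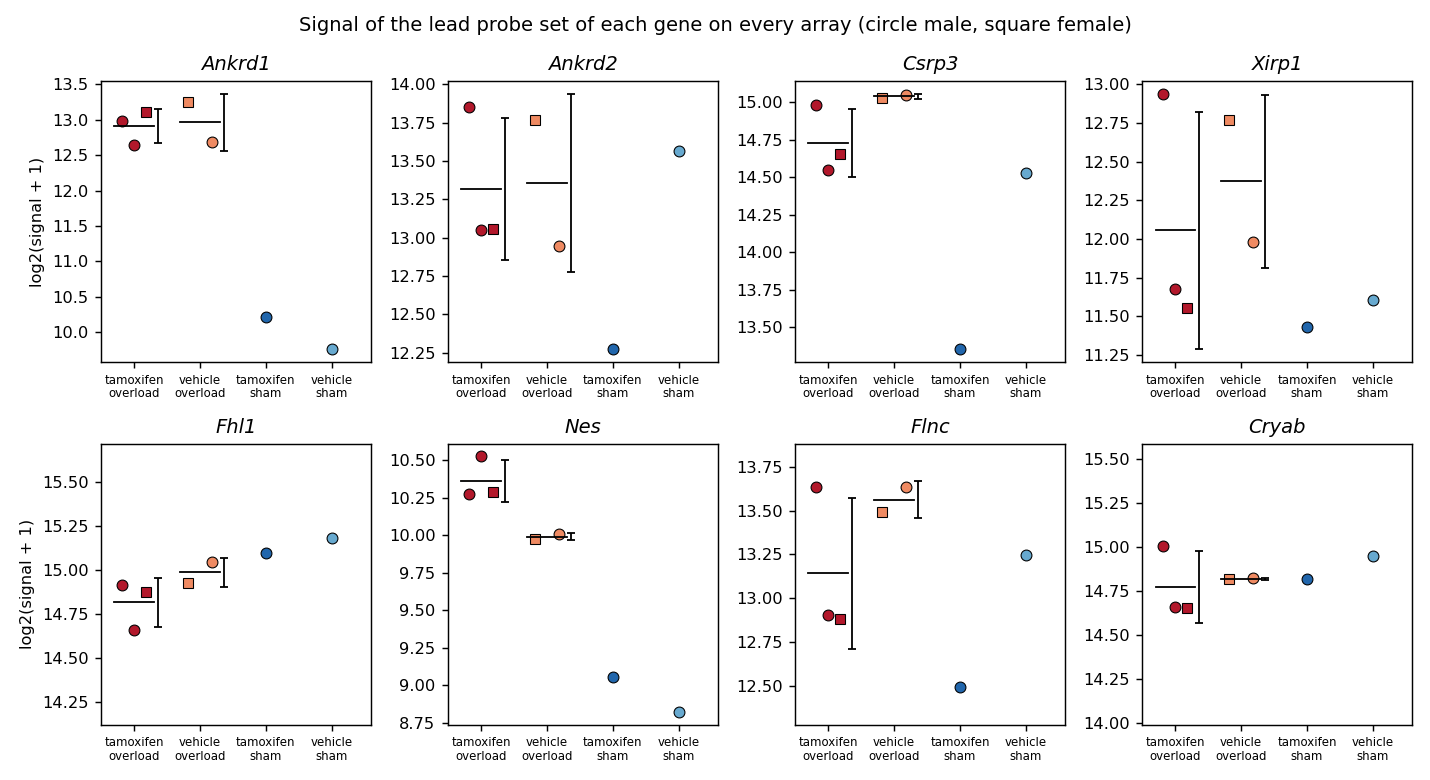
Level of each of the 8 genes on every array, as log2(signal + 1) of the lead probe set, with a separate vertical scale for each gene. Points are arrays (circles male, squares female), horizontal lines are group means and bars are 1 SD, drawn where a group has more than 1 array. For Ankrd1, Nes and Csrp3 all 5 overload points lie above both sham points, for Csrp3 by a narrow margin over vehicle sham, and for Fhl1 all 5 lie below both.

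The muscle ankyrin repeat proteins bind the elastic part of titin and can carry a signal from there to the nucleus. Ankrd1 (chr19:36111965-36119844, GRCm38.p6), whose product is also called cardiac ankyrin repeat protein, had signals of 8127, 6395 and 8845 on the 3 tamoxifen overload arrays and 9727 and 6561 on the 2 vehicle overload arrays, against 1189 on the tamoxifen sham array and 867 on the vehicle sham array. Every overload array was far above both sham arrays, and the 2 overload groups overlapped. The fitted difference was 2.78 ± 0.16 (SE) on the log2 scale, with a 95% interval of 2.41 to 3.14 and a limma adjusted p of 6.37e-05. It was 2.56 ± 0.20 under tamoxifen (limma adjusted p = 0.000658) and 2.996 ± 0.22 under vehicle (limma adjusted p = 0.000515). The second Ankrd1 probe set had nearly the same difference, 2.79 ± 0.17.

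Because Ankrd1 moved most, the sequence around its start is shown first, followed by those of Nes and Csrp3, the other genes that rose. Each is the RefSeq promoter of 300 bases on the GRCm38.p6 build, 250 before and 50 after the start of the transcript, printed 5′ to 3′ on the gene's own strand. Capitals mark matches to the MCAT motif, CATTCC or its complement GGAATG, which Tead transcription factors bind.
Ankrd1 (chr19:36119795-36120094, minus strand): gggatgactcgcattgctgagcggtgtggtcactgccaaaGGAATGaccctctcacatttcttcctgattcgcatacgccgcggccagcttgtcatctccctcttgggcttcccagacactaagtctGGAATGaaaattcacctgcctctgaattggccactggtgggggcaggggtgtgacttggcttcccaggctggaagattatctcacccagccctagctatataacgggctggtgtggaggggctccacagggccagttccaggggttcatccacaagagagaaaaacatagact
Nes (chr3:87970843-87971142, plus strand): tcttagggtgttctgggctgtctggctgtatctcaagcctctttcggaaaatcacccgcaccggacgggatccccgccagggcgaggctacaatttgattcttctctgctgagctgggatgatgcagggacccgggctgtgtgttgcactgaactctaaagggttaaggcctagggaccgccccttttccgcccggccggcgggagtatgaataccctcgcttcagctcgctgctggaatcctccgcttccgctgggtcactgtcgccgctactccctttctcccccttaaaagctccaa
Csrp3 (chr7:48848002-48848301, minus strand, the first of 2 RefSeq starts): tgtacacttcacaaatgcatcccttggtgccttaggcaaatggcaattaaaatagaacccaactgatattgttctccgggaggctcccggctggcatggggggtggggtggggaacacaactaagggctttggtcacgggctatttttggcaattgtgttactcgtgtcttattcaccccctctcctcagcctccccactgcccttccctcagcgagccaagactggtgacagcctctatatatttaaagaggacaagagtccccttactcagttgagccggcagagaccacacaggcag

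The Ankrd1 window holds 2 MCAT matches, which begin 210 and 123 bases before the start. Of 32851 mouse promoters of the same length, 14.7% hold at least 1 match and 1.36% hold 2 or more. Nes and Csrp3 have no capitals because these letters are not in their windows. Promoters were matched for 6 of the 8 genes, 9 windows in all, and the MCAT letters were also present in both overlapping windows of Flnc. The CArG box, bound by serum response factor, was found in 1 window, that of Fhl1, 102 bases before the start, and in 1.63% of all promoters. The E-box, CANNTG on either strand, was present in windows of 4 of the 6 genes and in 72.3% of all promoters. These are matches of letters, searched on both strands, and were not tested as binding sites.

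Ankrd2 (chr19:42035917-42045111), the skeletal muscle relative of Ankrd1, did not pass the test. Its signals were 14783, 8481 and 8507 on the tamoxifen overload arrays and 13944 and 7881 on the vehicle overload arrays, against 4948 on the tamoxifen sham array and 12115 on the vehicle sham array. One array in each overload group was above vehicle sham, the other 3 were below it, and all 5 were above tamoxifen sham. The mean difference was 0.37 ± 0.31 (limma adjusted p = 0.468). It was 1.00 ± 0.41 under tamoxifen (limma adjusted p = 0.142) and -0.27 ± 0.45 under vehicle (limma adjusted p = 0.781). No direction was settled. With a sham array left out, the mean only repeats the difference of the other treatment and is no separate check. It was -0.27 without tamoxifen sham and 1.00 without vehicle sham. Without vehicle overload replicate 2 the vehicle difference was 0.60, and none of these was called. Ankrd2 has a single probe set.

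The LIM proteins carry zinc-finger domains that join actin filaments to other Z-disc proteins. Csrp3 (chr7:48830398-48848051), the muscle LIM protein, had signals of 32443, 23980.3 and 25876 on the tamoxifen overload arrays and 33395 and 33979 on the vehicle overload arrays, against 10479.6 on the tamoxifen sham array and 23694 on the vehicle sham array. All 5 overload arrays were above both sham arrays, but the lowest of them was only just above vehicle sham. The mean difference was 0.97 ± 0.19 (limma adjusted p = 0.00884). Under tamoxifen it was 1.40 ± 0.24 and passed (limma adjusted p = 0.00905), whereas under vehicle it was 0.54 ± 0.27 and did not (limma adjusted p = 0.264). The mean result draws on the tamoxifen comparison, with its 1 sham array, since the vehicle difference alone was not called. Leaving out the tamoxifen sham array leaves only that vehicle difference, 0.54, and is no separate check. Without vehicle overload replicate 2 the mean difference was 1.01 and was no longer called.

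Fhl1 (chrX:56731209-56793346) encodes a LIM protein of the I-band and Z-disc that binds titin and is abundant in skeletal muscle. Its signals were 30858, 25819 and 30052 on the tamoxifen overload arrays and 31179 and 33807 on the vehicle overload arrays, against 35009 on the tamoxifen sham array and 37189 on the vehicle sham array. All 5 overload arrays were below both sham arrays, as they were for 18.3% of all genes. The difference, -0.24 ± 0.18, did not pass the test (limma adjusted p = 0.403), and after quantile normalization it was 0.05. The adult myofibre markers had differences of similar size. All 8 of them, among them Ckm, Acta1 and Myh4, had fitted differences between -0.45 and -0.25, none was called, and their summed signal was 208600 to 267200 on the overload arrays, against 301200 to 318600 on the sham arrays. After quantile normalization, too, their differences were close to that of Fhl1, between -0.09 for Myh4 and 0.05 for Ckm, with none called. The part of these markers in the Fhl1 values was not tested. In whole muscle, fewer cells of a type and less RNA per cell cannot be told apart. The second Fhl1 probe set had a difference of -0.15 ± 0.26, and there the overload and sham arrays overlapped.

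Xin (Xirp1) and filamin C (Flnc) bind actin and each other, and in muscle both are known to gather at sites of myofibril damage and at the junction with tendon. Xirp1 (chr9:120013755-120023598) was the most variable of the 8 genes among overload arrays, with the highest 2.61 times the lowest. Its signals were 7841, 3271 and 3003 on the tamoxifen overload arrays and 6964 and 4032 on the vehicle overload arrays, against 2756 on the tamoxifen sham array and 3120.3 on the vehicle sham array. A high and a low overload array were present under both treatments, and 4 of the 5 exceeded both sham arrays. The difference was 0.73 ± 0.42 (limma adjusted p = 0.262). It depended on single arrays, at 0.31 without tamoxifen overload replicate 1 and 1.39 without vehicle overload replicate 2, and was 0.44 after median centring, with no call in any of these. Under vehicle it was 0.81 ± 0.59, and between 0.37 and 1.91 with an array left out.

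Flnc (chr6:29433153-29461889) had signals of 12734, 7667 and 7559 on the tamoxifen overload arrays and 11499.5 and 12736 on the vehicle overload arrays, against 5769 on the tamoxifen sham array and 9703 on the vehicle sham array. Both vehicle overload arrays were above both sham arrays, whereas 2 of the 3 tamoxifen overload arrays lay between the sham arrays. The difference was 0.60 ± 0.22 and did not pass (limma adjusted p = 0.092). It did pass when tamoxifen overload replicate 2 was left out, at 0.77 (limma adjusted p = 0.0256), and after quantile normalization, at 0.76 (limma adjusted p = 0.0404). The second Flnc probe set had a difference of 0.46 ± 0.26.

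Nestin is an intermediate filament protein of developing and regenerating muscle. In adult muscle it is known to persist near neuromuscular and tendon junctions, and it is also made by myogenic precursor cells, Schwann cells and some endothelial cells. Nes (chr3:87971093-87980451) had signals of 1239, 1472 and 1247 on the tamoxifen overload arrays and 1005 and 1027 on the vehicle overload arrays, against 532 on the tamoxifen sham array and 452 on the vehicle sham array. On this lead probe set the levels did not overlap. The tamoxifen overload arrays were highest, the vehicle overload arrays came next and the sham arrays were lowest. The overload difference was 1.27 ± 0.15 (limma adjusted p = 0.0012), made up of 1.33 ± 0.20 under tamoxifen (limma adjusted p = 0.00501) and 1.21 ± 0.21 under vehicle (limma adjusted p = 0.015). The vehicle call was lost without vehicle overload replicate 2, at 1.27 (limma adjusted p = 0.13), and when the probe sets of a gene were averaged, at 1.04 (limma adjusted p = 0.0718). The other Nes probe sets had differences of 1.08 ± 0.21 and 2.34 ± 0.44, and in the larger of them both sham arrays were below background. On the probe set with 1.08 the 2 overload groups overlapped, with vehicle overload replicate 2 at 364 and tamoxifen overload replicate 1 at 357.

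Cryab (chr9:50745951-50756636) encodes alphaB-crystallin, a small heat shock protein that binds desmin and titin under stress. Its signals were 32930.2, 25806 and 25791 on the tamoxifen overload arrays and 28832 and 28941 on the vehicle overload arrays, against 28860.2 on the tamoxifen sham array and 31618 on the vehicle sham array. Overload and sham arrays overlapped, and the difference was -0.04 ± 0.19 (limma adjusted p = 0.901), with a 95% interval of -0.47 to 0.38. Its direction turned with the scaling, to 0.26 ± 0.13 after quantile normalization, and it was -0.34 after median centring, neither of them called. Small positive differences of 0.03 were also found when replicate 2 of either overload group was left out. A second Cryab probe set had -0.05 ± 0.19, and the third was above background on 1 of 7 arrays.

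**Figure D2:**
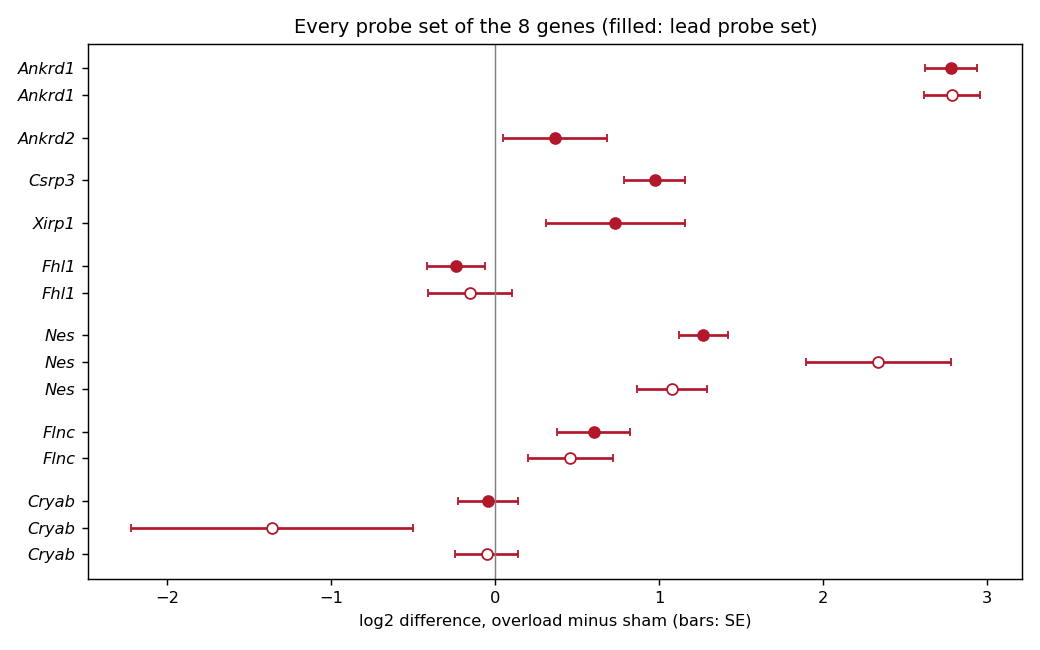
Overload minus sham difference (mean of both treatments) of all 15 probe sets of the 8 genes on the log2 scale, with bars of 1 SE. Filled points are lead probe sets and open points the others. The 2 Ankrd1 probe sets lie at 2.78 and 2.79, all 3 Nes probe sets lie above 1, and the Cryab point at -1.36 with the wide bar belongs to a probe set near background.

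The calls also depended on the method. Tests used a variance trend with intensity, and without that trend no gene of the 18193 was called and the adjusted p-values were 0.0575 for Ankrd1, 0.0645 for Nes and 0.0988 for Csrp3 in limma. The scaling mattered too. Centring each array on its median gave a median difference of all genes of -0.22, against 0.07 with the authors' scaling, and lowered every difference alike. Relative to the median of all genes, Ankrd1 stood at 2.71, Nes at 1.20 and Csrp3 at 0.91 under both scalings. After that centring Csrp3, at 0.68, was no longer called (limma adjusted p = 0.129), while Ankrd1 and Nes were.

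Whether loss of satellite cells altered these genes in loaded muscle was asked by setting tamoxifen overload against vehicle overload. In that comparison Pax7 itself, at -2.67 ± 0.81, was not called (limma adjusted p = 0.399). Its signal on tamoxifen overload replicate 2, 9.97, was below background, and the 8 genes had smaller SEs, 0.15 to 0.42. Pax7 is therefore no measure of the precision for these genes. A missing call cannot show that a gene was unaltered. None of the 8 genes was called, and none of all genes was (0.0% of 18193, smallest limma adjusted p = 0.198), although 1932 genes had an unadjusted p below 0.05. Nestin was the one member among them. It averaged 10.36 ± 0.14 (SD, n = 3) in tamoxifen overload and 9.99 ± 0.02 (SD, n = 2) in vehicle overload on the log2 scale, a difference of 0.36 ± 0.15 with a limma adjusted p of 0.466. On its lead probe set the 3 tamoxifen overload arrays were all above both vehicle overload arrays, as they were for 16.8% of all genes. For the lead probe sets of Csrp3 and Fhl1 all 3 tamoxifen overload arrays were below both vehicle overload arrays. The share of all genes with that order was not counted. Of the 8 differences, 6 were negative and 2 positive. Ankrd1 differed by 0.02, with a 95% interval of -0.35 to 0.38, and Csrp3 by -0.32, with an interval of -0.76 to 0.12. The widest intervals among the 8 genes were those of Xirp1, -1.30 to 0.63, and Ankrd2, -0.74 to 0.71. Flnc differed by -0.47 ± 0.22 (limma adjusted p = 0.489), with 2 of its 3 tamoxifen overload arrays below both vehicle overload arrays.

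The sham arrays, 1 per treatment, were compared by their values alone, and no test was run between them. Ankrd2 and Csrp3 were the members at least 2-fold lower under tamoxifen than under vehicle, by 2.45-fold and 2.26-fold, and 7.15% of all genes were lower by that much. Flnc was 1.68-fold lower under tamoxifen. Ankrd1 and Nes were higher under tamoxifen, by 0.45 and 0.23 on the log2 scale. The low tamoxifen sham values enter the overload differences directly. The overload difference was larger under tamoxifen than under vehicle by 1.28 ± 0.57 for Ankrd2 (limma adjusted p = 0.897) and by 0.86 ± 0.35 for Csrp3 (limma adjusted p = 0.842), and differed by -0.44 ± 0.29 for Ankrd1 (limma adjusted p = 0.979). No member and none of all genes (0.0%) was called in this interaction test, with 1021 genes and 1 member, Csrp3, at an unadjusted p below 0.05 and a smallest limma adjusted p of 0.245.

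**Figure D3:**
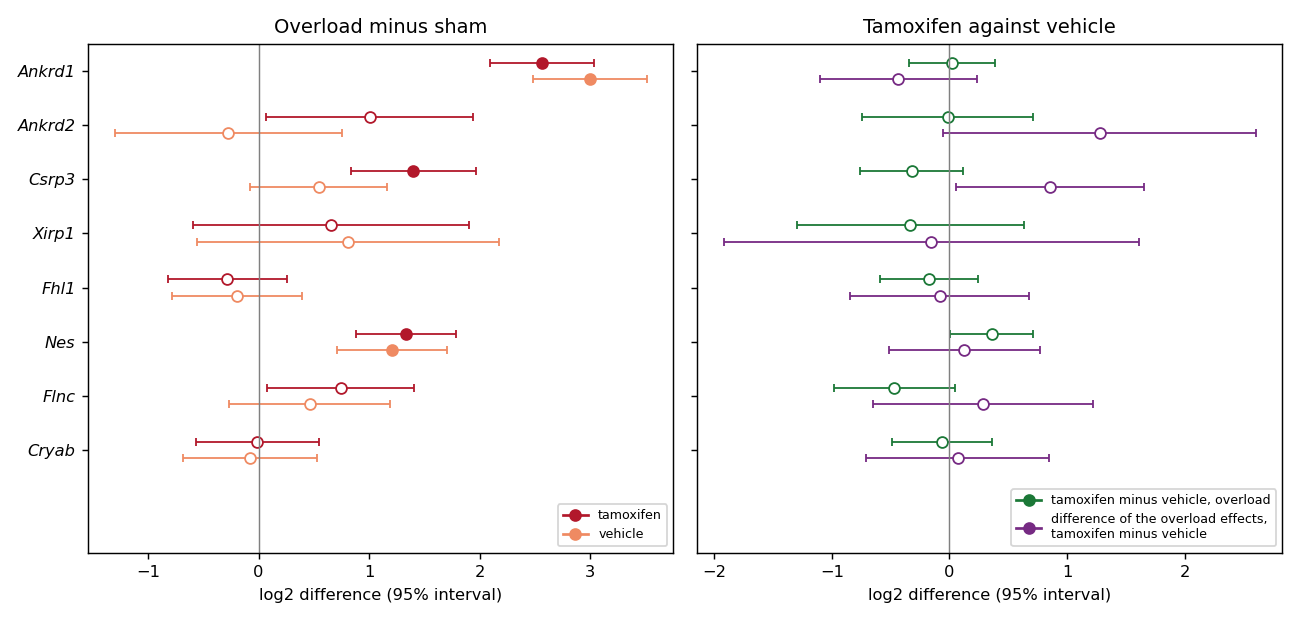
Fitted log2 differences of the 8 genes with 95% intervals, overload minus sham on the left (tamoxifen above vehicle) and the comparisons between treatments on the right. Filled points passed the test. Ankrd1 and Nes passed under both treatments, Csrp3 passed under tamoxifen and not under vehicle, and no point on the right, the test of that difference included, is filled.

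Counted by treatment, 3 of the 8 genes were called higher under tamoxifen, where 9.98% of all genes were, and 2 under vehicle, where 6.35% were. The 2 comparisons differ in replication, with 3 overload arrays under tamoxifen and 2 under vehicle. All 5 overload arrays exceeded both sham arrays for 3 members, Ankrd1, Nes and Csrp3, and for 23.1% of all genes.

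The 8 genes did not vary together across the overload arrays. Vehicle overload replicate 1 had the highest Ankrd1 and the lowest Nes, and vehicle overload replicate 2 had the highest Csrp3, Fhl1 and Flnc and the lowest Ankrd2. Tamoxifen overload replicate 1 had the highest Ankrd2, Xirp1 and Cryab. Tamoxifen overload replicate 2, the array with the highest 3'/5' ratios, had the highest Nes and the lowest Ankrd1, Csrp3, Fhl1 and Cryab, and was the highest overload array for 28% of all genes and the lowest for 21.9%. Tamoxifen overload replicate 3 had the lowest Xirp1 and Flnc. The part of RNA quality in the values of tamoxifen overload replicate 2 was not tested. Ankrd2 and Xirp1 were high on the same 2 arrays, tamoxifen overload replicate 1 and vehicle overload replicate 1, of which the first is male and the second female. With male arrays alone, Ankrd1 differed by 2.76, Nes by 1.26 and Csrp3 by 0.97, and all 3 were called.

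**Figure D4:**
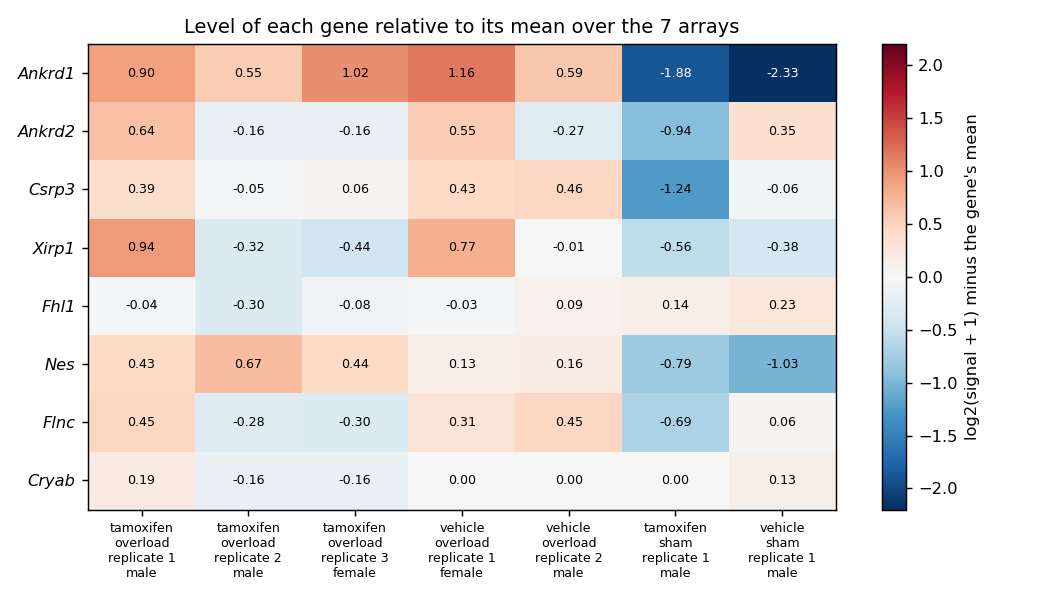
Level of each of the 8 genes on each of the 7 arrays, as log2(signal + 1) minus the gene's own mean, with the values printed. Red is above and blue below the mean. Ankrd1 is at 1.16 on vehicle overload replicate 1 and at -2.33 on vehicle sham, the lowest cells of Ankrd2 and Csrp3 are on tamoxifen sham, and the rows of Fhl1 and Cryab stay within 0.30 of their means.

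Genes with the most similar profile were sought for each member as those with the smallest root mean square difference of centred log2 values over the 7 arrays, among 12345 genes above background on at least 5 arrays. The likeness is a description of these 7 arrays, which share their groups. For Ankrd1 they were Col1a1, a chain of type I collagen, at 0.159, and the noncoding RNA Meg3 at 0.192. Nes was nearest to Npdc1 at 0.0656 and Hebp1 at 0.0786. Csrp3 was nearest to Prelid2 at 0.163 and Fam110a at 0.186. Ankrd2 was nearest to the protease gene Adamts8 at 0.0882 and to Tnfrsf12a, a receptor of the cytokine TWEAK, at 0.226. Tnfrsf12a was also second for Xirp1, at 0.23, after Rcan1, a regulator of calcineurin, at 0.22. Fhl1 was nearest to Gstp1 at 0.0231 and to myoglobin (Mb) at 0.0252, and Cryab to the beta-tropomyosin gene Tpm2 at 0.0362 and to Cops3 at 0.0382. Flnc was nearest to the LIM protein gene Lmcd1 at 0.112 and to Rom1 at 0.122. These distances are not scaled to how much a gene varied, so they cannot be ranked between members. The root mean square of a member's own centred values was 1.35 for Ankrd1, 0.159 for Fhl1 and 0.123 for Cryab.

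Related genes were counted by list in the mean comparison, where the same 14.7% and 8.16% of all genes were called higher and lower. Several genes named below as called in it were not called under each treatment taken alone. Among 13 measured genes of titin-linked signalling, 2 rose and 5 fell, with a median of -0.58, and after quantile normalization 2 were called higher and 3 lower, with a median of -0.32. Fhl2, a LIM protein related to Fhl1, was 1.65 ± 0.36 higher on the log2 scale (limma adjusted p = 0.0147), and Obsl1, a titin-binding linker, 1.01 ± 0.19. The Fhl2 difference was 2.19 under vehicle, with a sham signal of 75.5, and 1.11 under tamoxifen, with a sham signal of 210. Taken by treatment, Fhl2 was called under vehicle only and Obsl1 under tamoxifen only. The protease Capn3 was lower (-0.94 ± 0.16, limma adjusted p = 0.00462), and Ankrd23, the third muscle ankyrin repeat protein, was lower as well (-0.91 ± 0.18, limma adjusted p = 0.00956). The other 3 that fell, named here to complete the count, were Trim54, Trim63 and Myom1, and the calls of Trim63 and Myom1 were lost after quantile normalization (limma adjusted p = 0.103 for Trim63 and 0.0701 for Myom1). Ankrd23 thus fell in the comparison in which Ankrd1 rose and Ankrd2 was not called. Titin itself (Ttn, -0.33 ± 0.18) and Myom2 (-0.58 ± 0.18) were not called.

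Of 22 other Z-disc genes, 4 rose and 3 fell, with a median of -0.25, and after quantile normalization 5 were called higher and none lower, with a median of -0.07. Csrp2, a LIM protein of the same family as Csrp3, was 2.88 ± 0.35 higher on the log2 scale (limma adjusted p = 0.00122), Csrp1 1.02 ± 0.20, the actin crosslinker Flna 0.97 ± 0.24 and Pdlim1 0.70 ± 0.21. Pdlim1 and Flna were not called after median centring. The 3 that fell, outside the rule for named genes, were Myoz1, Ldb3 and Pdlim7, and none of the 3 was called after quantile normalization. Alpha-actinin-3 (Actn3, -0.39 ± 0.18) and myotilin (Myot, -0.36 ± 0.18) were not called. All 3 members of the Csrp family were called higher with the authors' scaling, and Csrp3 was not after median centring.

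Among 10 intermediate filament genes and linkers, 4 rose and 1 fell, with a median of 0.38 (0.09 after median centring). Lamin A/C (Lmna) was 1.68 ± 0.13 higher and vimentin (Vim) 1.53 ± 0.16 higher on the log2 scale (limma adjusted p = 0.000248 for Lmna and 0.000773 for Vim). The keratin genes Krt8 and Krt18, outside the rule for named genes, also rose, with sham levels near background. Synemin (Synm), a partner of desmin, was lower (-0.59 ± 0.15, limma adjusted p = 0.028), a call lost after quantile normalization. Desmin (Des, 0.08 ± 0.17), the main intermediate filament of adult muscle, and plectin (Plec, 0.10 ± 0.19) were not called.

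Of 12 small heat shock protein and chaperone genes, 4 rose and none fell. They were Hspb8 (0.96 ± 0.20), Hspb3 (0.90 ± 0.24), Hspb1 (0.75 ± 0.18) and Hspb7 (0.72 ± 0.21), all relatives of Cryab, with limma adjusted p-values of 0.0106 to 0.0434. Taken by treatment, Hspb8 was called under vehicle only, and Hspb3, Hspb1 and Hspb7 were called under neither. After median centring none of the 12 was called higher and 1, Stub1, was called lower. The median of the list was 0.11, and -0.18 after that centring. Hspb6 (-0.15 ± 0.19) and Hspa8 (-0.30 ± 0.16) were not called.

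Of 16 genes of the costamere and the dystrophin complex, which join Z-discs to the membrane, 5 rose and 3 fell, with a median of 0.13 (-0.16 after median centring). The laminin receptor subunit Itga7 was 1.23 ± 0.21 higher on the log2 scale (limma adjusted p = 0.00472), Sgcd 0.94 ± 0.27 and integrin-linked kinase (Ilk) 0.85 ± 0.14, and the adaptor Lims2 was lower (-0.89 ± 0.16, limma adjusted p = 0.00735). Itga7 differed by 1.62 under vehicle and by 0.84 under tamoxifen, and was called under vehicle only. Itgb1bp2 and Utrn rose and Sgca and Sspn fell, all 4 outside the rule for named genes. After median centring 2 of the 5 that rose were still called, Itga7 and Ilk, and after quantile normalization 3 genes were called higher and 1 lower. Dag1 (-0.27 ± 0.14) and Vcl (0.16 ± 0.14) were not called.

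In the axis of Yap, Tead and Srf, which includes the factors that bind the MCAT motif and the CArG box, 1 of 14 genes rose and 1 fell, with a median of 0.09 (-0.20 after median centring). Srf was lower (-0.61 ± 0.17, limma adjusted p = 0.0366). The gene that rose, Tead2, lies outside the rule for named genes and was near background in sham. Tead1 (-0.42 ± 0.16) and Abra (-0.66 ± 0.37) were not called.

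**Figure D5:**
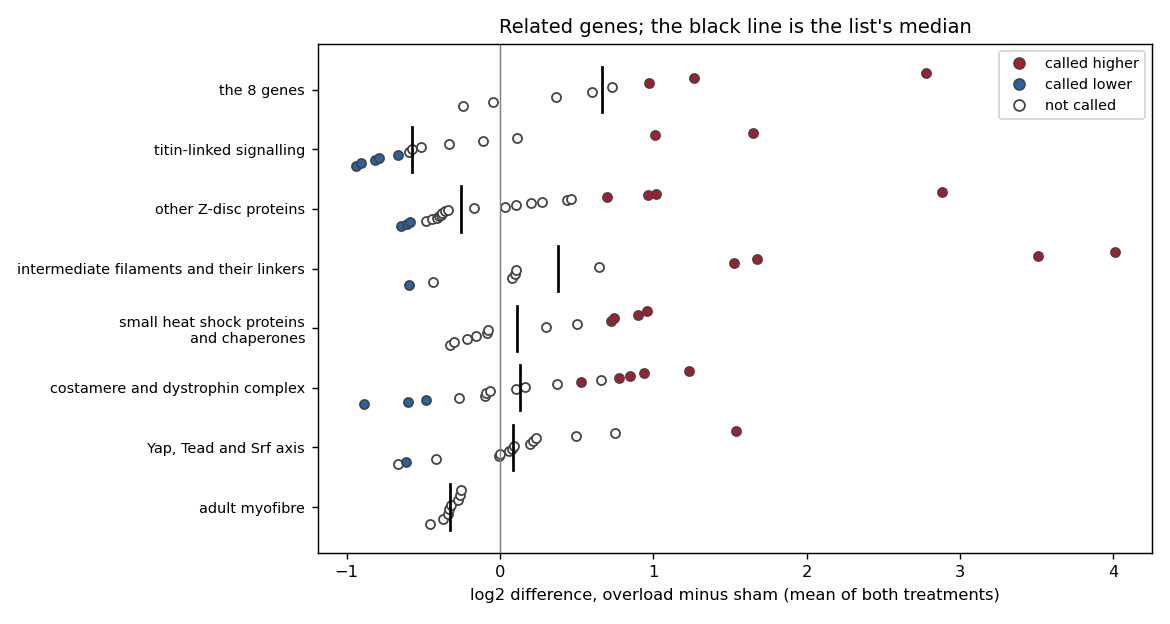
Overload minus sham difference (mean of both treatments) on the log2 scale for each measured gene of the related lists, 1 row per list. Red points were called higher, blue lower and open points were not called, and black lines are list medians. The 8 genes have a median of 0.67, titin-linked genes -0.58 and adult myofibre markers -0.32.

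Markers of other cell types moved with overload as well. Of 6 myoblast and new myotube markers 5 rose, with a median of 4.62 on the log2 scale, and their summed signal was 9544 to 26510 on the overload arrays, against 1629 to 1957 on the sham arrays, where Mymk and Mymx were below background. All 5 macrophage markers rose, with a summed signal of 9656 to 17050 on overload arrays, against 2937 to 4345 on sham arrays. Of 5 fibroblast markers 4 rose, with a summed signal of 87220 to 108800 on overload arrays, against 32270 to 41150 on sham arrays. In the other lists, 1 of 7 satellite cell markers (Chodl), 1 of 7 endothelial markers (Cldn5), 1 of 5 smooth muscle markers (Acta2) and 1 of 5 pericyte markers (Pdgfrb) rose, and 1 endothelial marker (Kdr) and 1 of 5 Schwann cell markers (Mbp) fell, shares to be read against the 14.7% and 8.16% of all genes. Pdgfrb, Kdr and Mbp went against the medians of their lists, -0.40 for pericyte, 0.33 for endothelial and 0.16 for Schwann cell markers. The calls of Chodl, Cldn5 and Acta2 were lost after median centring, and those of Cldn5 and Mbp after quantile normalization. After median centring the pericyte markers Kcnj8 and Abcc9 and the smooth muscle marker Myh11 were called lower. Nestin and vimentin are made by several of these cells, and the part of the markers in the rise of Nes, Csrp3 and Ankrd1 was not tested.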

How the data were processed

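Biotin-labelled material from total RNA of whole plantaris muscle was measured on 7 Affymetrix mouse expression arrays. The values deposited by the authors are linear intensities, and on every array their mean after dropping 2% of probe sets at each end is 500. Such scaling does not show whether total RNA per muscle changed. Per the submitters' processing notes the software Partek was used, with no version named. How probe sets were summarised is not stated in the labels.

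Of 45101 probe sets, the 34945 with a single symbol in the platform annotation were assigned to 18193 genes, and the probe set with the highest mean log2(value + 1) stood for the gene. Groups came from the sample titles. The model was fitted in limma 3.58.1 (R 4.3.3) with a mean per group, a sex term and a variance trend with intensity (2 residual degrees of freedom, 5.95 prior). Benjamini-Hochberg adjustment ran over all 18193 genes, two-sided, with calls below 0.05. With 1 sham array per treatment, the residual spread comes from the overload arrays, and a sham array is assumed to vary like them. The fit was tested on simulated data with the same spread in sham and overload arrays, which leaves that assumption unchecked. The background level is the 95th percentile of 77 olfactory, vomeronasal and taste receptor genes. The number of arrays limits the precision.

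The 8 genes and the related lists were chosen with earlier results of these data known. The genes named from each list are up to 4 called with the largest difference and above background, up to 2 not called with the highest level, and for each of the 8 the 2 nearest profiles. Alternatives were another normalization, pseudocount, filter, probe set rule, sex or trend setting, and each array left out. Promoters are RefSeq's on GRCm38.p6.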

Additional observations from a re-analysis of the deposited data

How the results depend on the processing

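Of the log2 differences of the 8 genes under alternative settings, 603 kept their direction and side of the threshold, 16 lost a call and 3 gained one. Another 42 changed sign without being called in either setting, and none that was called changed sign. Counts of called genes are not part of this tally. Ankrd1 ranged from 2.49 to 2.996 over the alternatives of the mean comparison, Nes from 0.98 to 1.56 and Csrp3 from 0.54 to 1.40. Without the intensity trend 0 members and 0 genes were called in the mean comparison and in each treatment, against 3 members and 4163 genes in the mean comparison, 3 and 2706 under tamoxifen and 2 and 1599 under vehicle with it. With neither sex term nor trend, 1 member and 419 genes were called under vehicle and 671 genes under tamoxifen. Averaging probe sets gave 1 member and 1051 genes under vehicle, quantile normalization gave 964 genes there, and male arrays alone gave 1024 there and 3 genes for tamoxifen against vehicle in overload. Leaving out each array in turn gave 2 to 4 members and 1613 to 4695 genes in the mean comparison, lowest without tamoxifen sham, and 3 to 4 members and 1954 to 3563 genes under tamoxifen. It gave 1 to 2 members and 371 to 2499 genes under vehicle, lowest without vehicle overload replicate 2. It gave 0 to 227 genes for tamoxifen against vehicle in overload and 0 to 12 for the interaction, both highest without tamoxifen overload replicate 1, with 0 members in each. The related lists had 33 called genes in all, and 8 to 44 with an array left out. The cause of these changes was not tested. Without a sham array its treatment has no overload difference of its own. The additive fit, used for the mean there, then repeats the difference of the other treatment. Such fits set both ends of the Csrp3 range and the top of the Ankrd1 range. No paired analysis was possible because the titles give no replicate numbers shared between groups. Near background, as for Krt8 and the third Nes probe set, signal limits the size of a difference.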
